A study of Mus musculus with 3 samples.

Results

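The genes described here are the 6 NR4A and EGR transcription factor genes Nr4a1, Nr4a2, Nr4a3, Egr1, Egr2 and Egr3, of 32285 genes in the files. They were chosen by name as members of these families, with earlier results of these data known. They were followed across the immune cells of inflamed pancreatic islets of wild-type female NOD mice, a strain that develops autoimmune diabetes. Each of the 3 libraries held live CD45+ cells sorted from dispersed islets of 2 to 3 pooled mice aged 15 to 16 weeks. By the study's islet methods, dispersed cells were kept in medium at 37°C for 1 h before later steps. The levels are therefore those after this handling, and its part in them was not tested. There was 1 condition, with no treatment and no other genotype, and the 3 libraries came from 2 independent experiments, without a statement of which library belongs to which. The pooled mice of a library cannot be told apart, so a library was the unit of replication (n = 3) and cells were never counted as replicates.

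NR4A and EGR genes are immediate early genes. Signals from an antigen receptor, among them calcium with NFAT and the ERK pathway with serum response factor, switch them on without new protein synthesis. Nr4a1 and Nr4a3 reporters are used to mark lymphocytes that met antigen recently. Their proteins also restrain lymphocytes: EGR2 and EGR3 drive genes of T-cell anergy, and NR4A proteins support the exhausted state of T cells, in which Pdcd1, the gene of the inhibitory receptor PD1, stays on. Other signals, including those of tissue digestion, induce the same genes, so a transcript of theirs is no proof of antigen contact.

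The cells were classed by raw UMIs, the molecules counted per gene and cell. Of 26947 cells, 26142 had at least 1000 UMIs and under 10% mitochondrial UMIs. A CD8 T cell had a Cd3e UMI, at least 2 UMIs of Cd8a and Cd8b1 together and none of Cd4. A CD4 T cell had Cd3e and Cd4 but no Cd8a, Cd8b1 or Foxp3 UMI, and a regulatory T cell (Treg) had Cd3e and Foxp3. Each of these was split into Pdcd1+ (at least 1 Pdcd1 UMI) and Pdcd1- (none), and a B cell had at least 2 UMIs of Cd79a and none of Cd3e. The rule placed 15605 cells in 7 classes: 1066 CD8 Pdcd1+, 2133 CD8 Pdcd1-, 2003 CD4 Pdcd1+, 3855 CD4 Pdcd1-, 888 Treg Pdcd1+, 724 Treg Pdcd1- and 4936 B cells. Another 59 cells met both the CD8 and the Treg rule and were left out.

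The stretches upstream of the Nr4a starts are shown because these 3 genes, which are spread over 3 chromosomes, share one short element there. That of Egr2 is shown because it holds another, beside 2 matches of the same element. The sequences are from RefSeq (GRCm38.p6), and Nr4a1, Nr4a2, Nr4a3 and Egr2 had one that is shown. None is shown for Egr1 or Egr3. Capitals mark TGACG, the core of the element bound by CREB and ATF proteins, read on either strand (CGTCA on the other), and in Egr2 also a CArG box, the element of serum response factor. The stretch of Nr4a1 is chr15:101266596-101266845 (+), that of Nr4a2 chr2:57124004-57124253 (-), that of Nr4a3 chr4:48045055-48045152 (+) and that of Egr2 chr10:67537619-67537868 (+). None of these bases lies in an exon of the GENCODE M21 annotation.
Nr4a1: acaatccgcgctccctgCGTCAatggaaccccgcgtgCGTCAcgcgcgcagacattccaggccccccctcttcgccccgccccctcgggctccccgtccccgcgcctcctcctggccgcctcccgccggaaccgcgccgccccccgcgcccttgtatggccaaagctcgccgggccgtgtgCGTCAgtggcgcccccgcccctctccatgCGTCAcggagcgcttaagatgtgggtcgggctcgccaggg
Nr4a2: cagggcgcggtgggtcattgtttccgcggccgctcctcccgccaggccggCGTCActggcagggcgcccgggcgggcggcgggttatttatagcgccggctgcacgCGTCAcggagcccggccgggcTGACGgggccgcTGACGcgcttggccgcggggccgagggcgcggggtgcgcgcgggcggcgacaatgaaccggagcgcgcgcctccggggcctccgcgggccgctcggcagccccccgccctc
Nr4a3: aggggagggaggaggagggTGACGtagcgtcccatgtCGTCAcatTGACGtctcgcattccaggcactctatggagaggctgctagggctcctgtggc
Egr2: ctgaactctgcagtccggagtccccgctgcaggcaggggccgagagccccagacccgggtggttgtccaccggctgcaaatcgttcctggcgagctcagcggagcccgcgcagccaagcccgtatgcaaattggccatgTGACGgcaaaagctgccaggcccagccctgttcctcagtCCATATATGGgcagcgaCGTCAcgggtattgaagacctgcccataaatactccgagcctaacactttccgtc
In windows of 300 bases, 250 before and the rest after the start, Nr4a1, Nr4a2 and Nr4a3 each held 4 matches of TGACG. The window of the Egr2 start shown held 2. Of all 32851 such windows of mouse genes, 20.8% held at least 1 match and 0.231% (76 windows) held 4 or more. A CArG box lay in the windows of 4 of 5 Egr2 starts, of which 3 overlap almost wholly and hold the same box, and in 1.63% of all windows. The Nr4a1 window also held GCGGGGGCG, the site that EGR proteins bind, which 2.91% of windows hold. These are matches of letters, and binding was not measured.

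Levels are given in CPM, the UMIs of a gene divided by all UMIs of the class in that library and scaled to 1000000. The libraries held 5844, 9537 and 11566 cells and 33851381, 74775394 and 80806452 UMIs. Replicate 1 stood apart from replicates 2 and 3: its cells were shallower (median of 4230 UMIs per cell against 6415 and 5521), and in all 7 classes its summed level of 24 immediate early and heat shock genes was the highest of the libraries (5705 to 7303 CPM against 4295 to 5653). Its members were higher too in most classes, as the values below show, so results are given per library and without replicate 1 where that matters. The T and B classes carried their defining genes: the 6 T-cell markers summed to 3743 to 6061 CPM in T classes and 159 to 183 in B cells, and all 6 B-cell markers were higher in B cells. Against CD4 Pdcd1- cells, CD4 Pdcd1+ cells had 5 of 5 CD8 markers and 3 of 6 Treg markers called higher, where 11.9% of all genes were called. The 5 CD8 markers summed to 1507 to 2845 CPM in CD4 Pdcd1+ and 7118 to 10170 in CD8 Pdcd1+ cells. Of 9 myeloid markers, 3 were called higher in B cells than in Pdcd1- T cells, where 29.8% of all genes were. The part of mixed cells in this was not tested. Transcripts of B cells were also counted in T classes (355 to 16240 CPM over the 6 markers, against 12020 to 33650 in B cells), with the highest sum in Treg Pdcd1+ of replicate 1. Between 12 and 29 cell barcodes were shared by any pair of libraries.

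A CPM over summed cells cannot tell fewer positive cells from less RNA per cell. Nr4a1, which encodes the receptor NUR77, had its highest level in B cells, with 196, 122 and 138 CPM in replicates 1 to 3. In the 6 T classes it ranged from 32.8 to 102. Its means ran from 44.9 ± 19.9 (SD, n = 3) in CD8 Pdcd1+ cells through 58.6 ± 27.7 in CD8 Pdcd1-, 64.3 ± 23.4 in CD4 Pdcd1-, 65.8 ± 25.5 in CD4 Pdcd1+ and 72.5 ± 6.73 in Treg Pdcd1+ to 73.2 ± 25.2 in Treg Pdcd1-, and neighbours in this order differed by less than their SDs.

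Nr4a2, which encodes NURR1, had its highest means in CD8 Pdcd1+ (186 ± 105) and CD4 Pdcd1+ cells (177 ± 56.3) and its lowest in B cells (88.8, 54.6 and 47.8 CPM), with CD8 Pdcd1- (146 ± 144), Treg Pdcd1+ (103 ± 4.76), CD4 Pdcd1- (92.7 ± 64.9) and Treg Pdcd1- cells (67.7 ± 35.5) between them. Neighbours in this order differed by less than the larger of their SDs, though the even Treg Pdcd1+ class stood further from its neighbours than its own SD. Its levels were 298, 88.5 and 172 CPM in CD8 Pdcd1+ cells and 241, 154 and 136 in CD4 Pdcd1+ cells. Treg Pdcd1+ cells were even across the libraries, at 108, 99.5 and 100. Replicate 1 decided much of the level in CD8 Pdcd1- cells, which had 313 there against 66.6 and 58.3 in the others.

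Nr4a3, which encodes NOR1, had its highest mean in CD4 Pdcd1+ cells (197, 131 and 115 CPM) and its lowest in B cells (69.6, 50.6 and 54.0). In CD8 T cells it was lower in replicates 2 and 3 (52.6 to 77.5) than in any CD4 class, and in the Treg Pdcd1+ class its 3 values were 105, 107 and 107.

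The Egr genes were sparser. Egr3 had 61.4, 31.1 and 31.8 CPM in B cells and from 1.49 to 14.4 in the T classes. Egr1, the zinc finger factor most used as a general activation marker, had 67.0, 32.7 and 31.2 in B cells and from 17.3 to 56.1 in T classes, which overlap. Egr2, the factor of T-cell anergy, stayed between 0.890 and 9.66 in all 21 sums and was counted in only 22 UMIs over each Treg class, so its differences there are poorly determined.

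**Figure D1:**
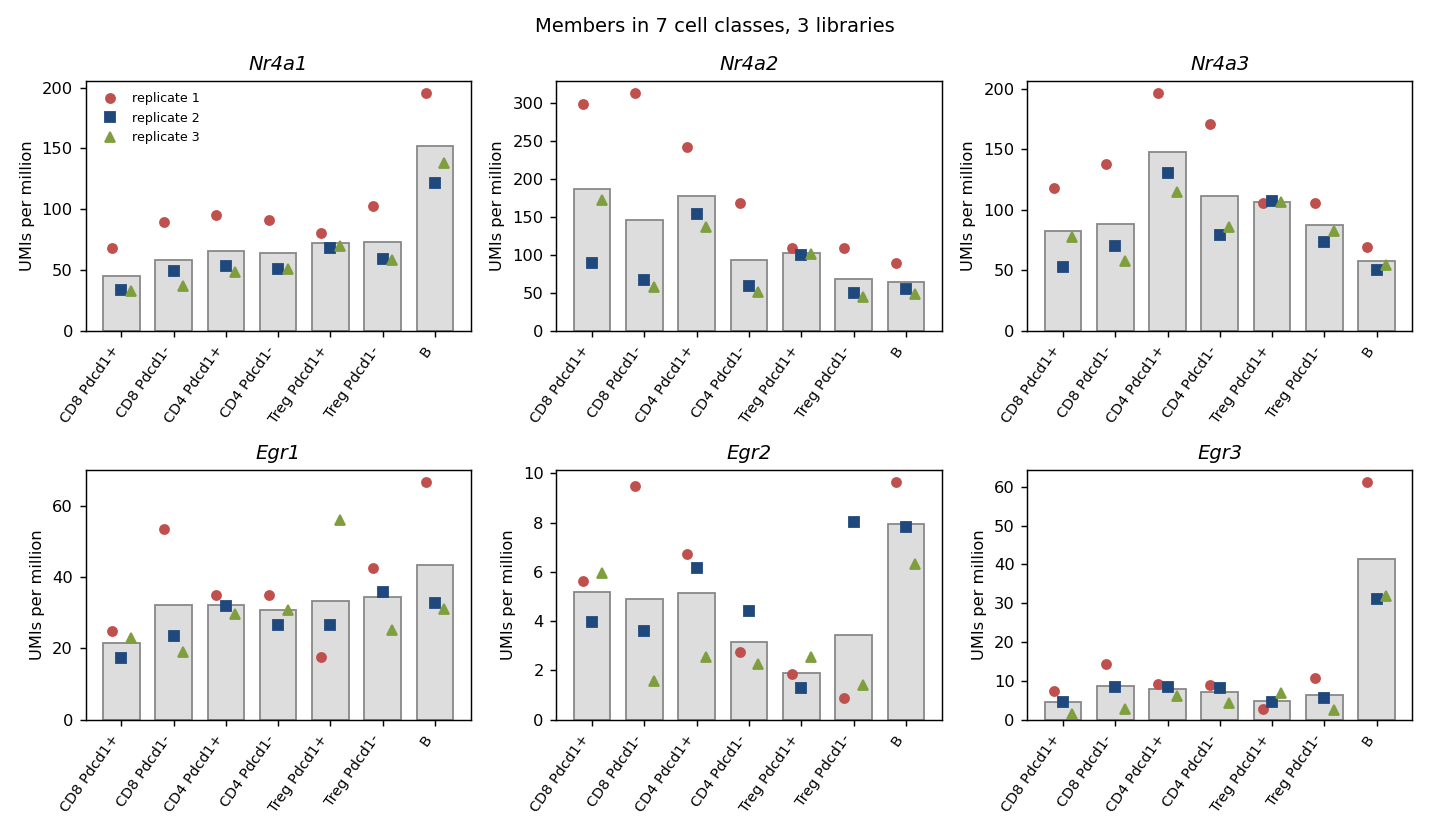
Level of each member in CPM (vertical axes, each gene on its own scale from 0) in the 7 classes, with a point per library and a bar for the mean of 3. Nr4a1 and Egr3 stand highest in B cells in every library, Nr4a2 and Nr4a3 have their lowest mean in B cells, and replicate 1 is the highest of the libraries in most classes.

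The first question was whether T cells that carry Pdcd1 transcripts differ in these genes from T cells of the same lineage that do not. Within CD4 T cells, Nr4a2 was 1.44, 2.59 and 2.66 times as high in Pdcd1+ as in Pdcd1- cells in replicates 1 to 3 (Pdcd1-: 167, 59.4 and 51.1 CPM). Fitted over all 21 sums with library as a block, the log2 fold change was 0.97 ± 0.27 (SE; adjusted p = 0.022, edgeR quasi-likelihood test with Benjamini-Hochberg adjustment over 11259 genes). It was 1 of 6 members called in CD4 T cells, where 11.9% of all genes tested were called. Nr4a3 was higher in Pdcd1+ cells in 3 of 3 libraries, by 1.15, 1.66 and 1.34 times, but its log2 fold change of 0.30 ± 0.16 did not pass (adjusted p = 0.25). Nr4a1 (-0.13 ± 0.12), Egr1 (-0.07 ± 0.28), Egr2 (0.39 ± 0.44) and Egr3 (0.05 ± 0.31) did not pass either.

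The Nr4a2 call in CD4 T cells held without replicate 1 (1.21, adjusted p = 0.00039). It was lost without replicate 2 or 3 (0.83 each, adjusted p = 0.26 and 0.25) and without the library block (0.83, adjusted p = 0.68). The number of all genes called in CD4 T cells moved in the same way. It was 1338 in the main fit, 2239 without replicate 1, 123 and 177 without replicate 2 or 3, and 217 without the block. With the study's own limits on cells (fewer than 6000 UMIs, 200 to 5000 genes seen, mitochondrial UMIs below 5% and ribosomal ones above 5%) the value was 1.74, and without T cells holding a UMI of the naive markers Ccr7 or Lef1 it was 0.27 (adjusted p = 0.83), as described with the naive markers.

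Within CD8 T cells it was Nr4a1 that passed, and downwards. Its levels were 67.9, 33.9 and 32.8 CPM in Pdcd1+ cells and 89.8, 49.5 and 36.6 in Pdcd1- cells, lower in 3 of 3 libraries but with overlapping groups. The log2 fold change was -0.52 ± 0.14 (adjusted p = 0.018), 1 of 6 members called where 10.6% of all genes were called. This call depended on the cells chosen: with cells thinned to 2000 UMIs before the classes were drawn, the estimate changed sign (0.15, adjusted p = 0.94). Under the study's limits it was -0.31 (adjusted p = 0.56). Without T cells holding a UMI of the naive markers Ccr7 or Lef1 the call was lost, but the estimate lay further from 0 (-0.76, adjusted p = 0.56). Only 8 of 7899 genes were called in CD8 T cells there. The Nr4a1 call was also lost without replicate 2 or 3 (adjusted p = 0.36 and 0.056) and without the library block (-0.51, adjusted p = 0.60). Over all genes, 162, 163 and 212 were called in CD8 T cells in these fits.

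Egr3 was low but its ratio in CD8 T cells was even, at 0.519, 0.543 and 0.526 in the 3 libraries, on 38 UMIs in Pdcd1+ and 112 in Pdcd1- cells. The fitted value was -1.02 ± 0.42 (adjusted p = 0.14) and was not called. Nr4a2 had ratios of 0.952, 1.33 and 2.95 and a log2 fold change of 0.46 ± 0.28 (adjusted p = 0.34), which passed without replicate 1 (0.87, adjusted p = 0.011) and under the study's limits (1.03, adjusted p = 0.031), and was -0.02 without replicate 3. Nr4a3 (-0.20 ± 0.17), Egr1 (-0.56 ± 0.33) and Egr2 (0.31 ± 0.50) were not called.

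In Tregs none of the 6 members was called, where 0.187% of all genes were (21 of 11259, with 923 at an unadjusted p under 0.05). Nr4a2 was at 0.80 ± 0.31 (adjusted p = 0.48), with ratios of 0.997, 2.01 and 2.24. Nr4a3 was at 0.33 ± 0.18 and Nr4a1 at 0.06 ± 0.14. The Egr estimates (Egr1 0.19 ± 0.34, Egr2 -0.85 ± 0.69 and Egr3 0.16 ± 0.49) had 95% intervals on both sides of 0. The B-cell marker sum ran from 939 to 16240 CPM in Treg Pdcd1+ and from 948.5 to 4569 in Treg Pdcd1- libraries. Without cells that held a UMI of another cell type, Nr4a2 was at 0.56 in Tregs, 1.03 in CD4 T cells and 0.53 in CD8 T cells.

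**Figure D2:**
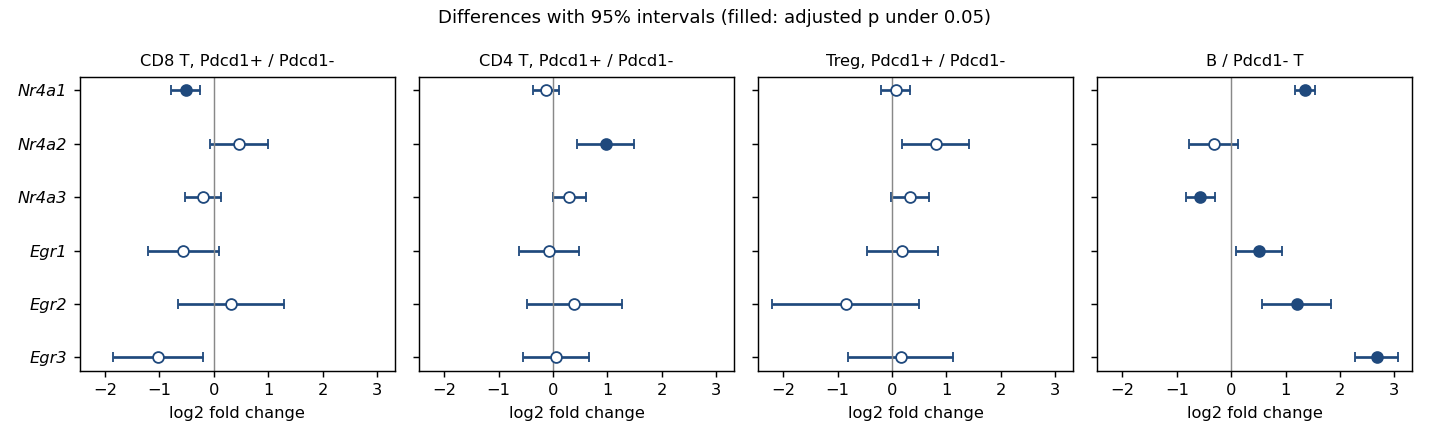
Log2 fold change of each member (horizontal axes) with its 95% interval, for Pdcd1+ against Pdcd1- cells in 3 lineages and for B cells against the mean of the Pdcd1- T classes. Filled points passed an adjusted p of 0.05: Nr4a1 in CD8 T cells, Nr4a2 in CD4 T cells, and all members but Nr4a2 in B cells.

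Whether the Pdcd1 difference itself differed between lineages was tested as an interaction. None of the 6 members passed, where 0% of all genes were called between CD8 and CD4 T cells (0 by edgeR, with 616 at an unadjusted p under 0.05) and 0.0266% between Tregs and CD4 T cells. For Nr4a1 the difference of the log2 fold changes, CD8 minus CD4, was -0.39 ± 0.18 (adjusted p = 0.89), and for Nr4a3 it was -0.51 ± 0.23 (adjusted p = 0.87).

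Pdcd1+ cells were deeper than Pdcd1- cells of the same library and lineage (for example a median of 11508 against 7518 UMIs in Tregs of replicate 2). Each cell was therefore thinned to 2000 UMIs, which left out 91 of 15605 cells, and the share of cells with a UMI of each member was compared. Nr4a2 was seen in 33.7%, 21.9% and 18.1% of CD4 Pdcd1+ cells against 21.7%, 7.06% and 6.04% of CD4 Pdcd1- cells. In CD8 T cells it was in 43.3%, 16.2% and 22.5% against 34.2%, 8.72% and 8.88%, and in Tregs in 17.0%, 16.4% and 15.2% against 15.3%, 5.96% and 10.1%. At equal depth, Nr4a2 was thus found in more Pdcd1+ cells in every library of every lineage. Likely doublets (the 7.6% of cells with the highest Scrublet scores) were also more frequent among Pdcd1+ cells in every library of every lineage. In CD8 T cells they made up 11.3%, 15.1% and 11.1% of Pdcd1+ against 9.79%, 7.05% and 5.68% of Pdcd1- cells. Thinning keeps these cells, and their part in these shares and in those by Pdcd1 UMIs below was not tested.

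The mean gain was 13.0 ± 1.65 percentage points (SD, n = 3) in CD4 T cells, 10.1 ± 3.17 in CD8 T cells and 5.74 ± 4.39 in Tregs. An exact permutation test over 3 libraries gave p = 0.25 for each, the smallest it can give. Of the other members, Nr4a3 (5.07 ± 2.05 points) and Egr3 (0.262 ± 0.269 points) were more frequent in 3 of 3 libraries of CD4 T cells and Nr4a1 in 3 of 3 of Tregs (2.94 ± 0.937 points). The Egr3 gain is below its SD and rests on 22 Pdcd1+ and 29 Pdcd1- cells with a UMI. The share of all genes that keep one direction in 3 of 3 libraries was not counted for these shares. In CD8 T cells the share with Nr4a1 did not keep one direction (-2.85, -1.62 and 0.653 points), and neither did that with Nr4a3. Without thinning, the mean share of cells with Nr4a2 was 54.4% in CD8 Pdcd1+ and 31.9% in CD8 Pdcd1- cells, 45.2% and 23.5% in CD4, and 43.4% and 23.8% in Treg cells. As a guide to free RNA and mixed droplets, 3.49% of thinned B cells held the T-cell gene Cd3d, and 4.18% to 9.62% of thinned T cells held Cd79b. These shares are not on one base. The rule left out B cells with a Cd3e UMI, which lowers their Cd3d share, while T cells with B-cell UMIs were kept.

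The share of cells with Nr4a2 was also read by the number of Pdcd1 UMIs left in the thinned cell. Pdcd1 UMIs also draw the classes, so this reading is not separate support for the difference between them. The group with 0 included Pdcd1+ cells that lost their Pdcd1 UMIs in thinning (2539 CD8 T cells, against 2131 thinned CD8 Pdcd1- cells). In CD4 T cells the share with Nr4a2 was 13.0% with 0 Pdcd1 UMIs, 24.4% with 1 and 30.8% with 2 or more (means of 3 libraries). The steps in CD8 T cells were 18.8%, 25.8% and 29.9%, and in Tregs 12.0%, 15.9% and 20.2%. This stepwise rise was present in 9 of 9 combinations of library and lineage for Nr4a2, against 3 of 9 for Nr4a3, 2 of 9 for Nr4a1 and 0 of 9 for Egr3. It was present in 2 of 9 for Egr1 and 3 of 9 for Egr2. How many of all genes rise in this way was not counted, so the rise cannot be called particular to Nr4a2. Cd69, an early surface marker of activation, rose in 0 of 9 and fell at each step in 4 of 9.

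**Figure D3:**
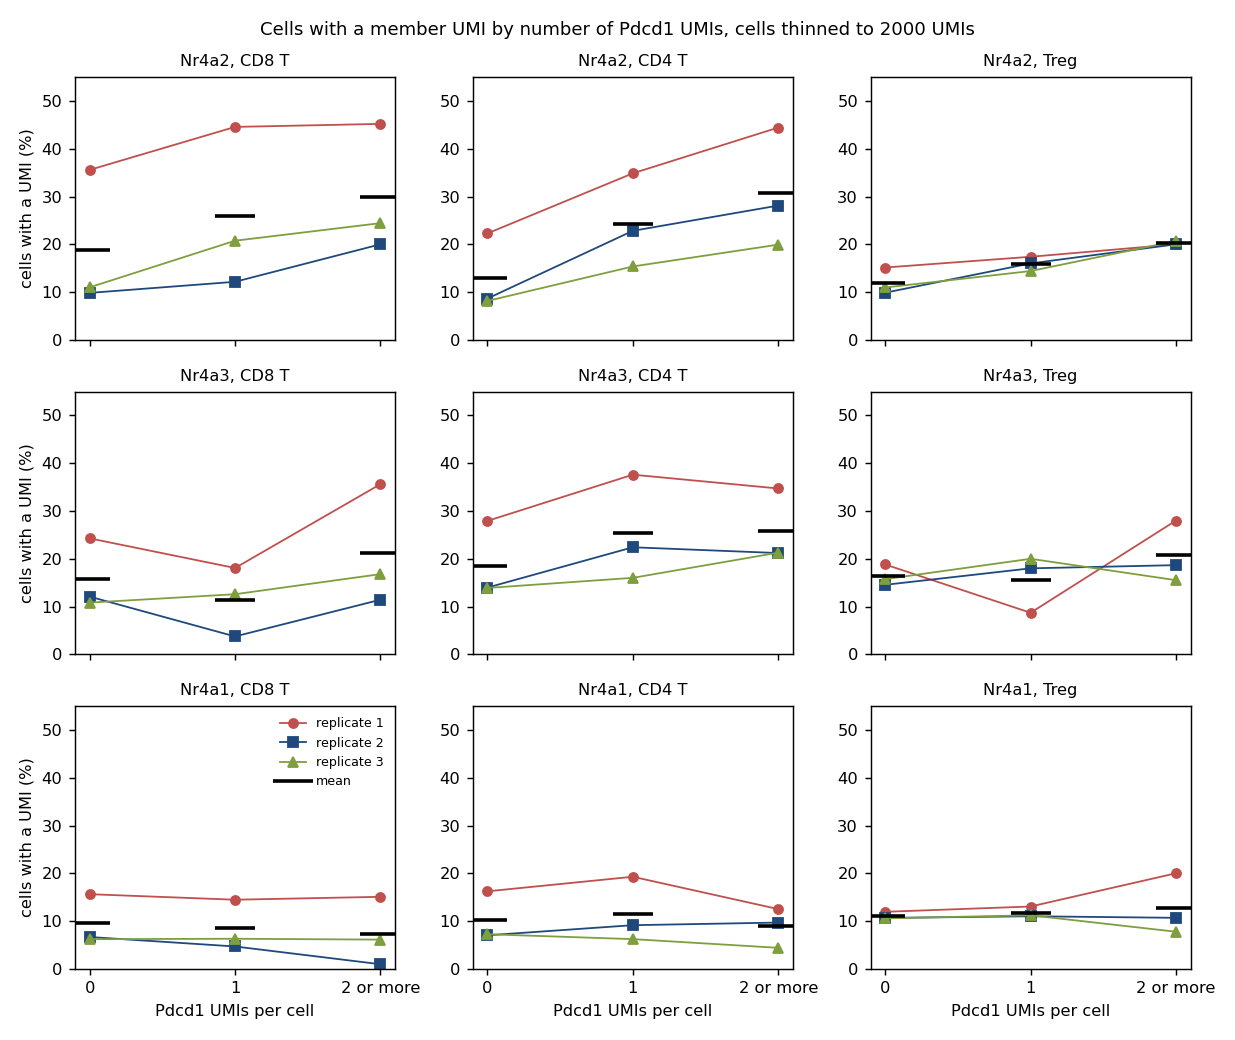
Percent of cells with a UMI of Nr4a2, Nr4a3 or Nr4a1 (vertical axes) against the number of Pdcd1 UMIs per cell (horizontal axes) in CD8 T cells, CD4 T cells and Tregs thinned to 2000 UMIs, with a line per library and a bar for the mean. Nr4a2 climbs in all 9 lines of its row, from 13.0% to 30.8% on average in CD4 T cells, while Nr4a1 shows no common direction.

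The Pdcd1- classes held more naive T cells: the naive markers Ccr7, Lef1, Tcf7 and S1pr1 were all lower in Pdcd1+ CD8 and CD4 T cells. The comparison was therefore repeated among thinned cells by whether they held a UMI of Ccr7 or Lef1, a split added after the data were seen. The markers were read after thinning, so many cells counted as without them held such a UMI at full depth. For example, 1005 thinned CD4 Pdcd1- cells lacked it, against 147, 149 and 190 at full depth in replicates 1 to 3. This split therefore separates naive cells only in part. Among CD4 T cells without such a UMI, 25.9% ± 9.16 of Pdcd1+ and 15.0% ± 8.98 of Pdcd1- cells held Nr4a2, a gain of 10.9 ± 1.88 points in 3 of 3 libraries. Among those with such a UMI the gain was 12.6 ± 1.64 points.

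In CD8 T cells without a Ccr7 or Lef1 UMI, Nr4a2 was in 28.5% ± 12.7 of Pdcd1+ and 25.3% ± 19.6 of Pdcd1- cells, 3.19 ± 7.13 points apart and higher in 2 of 3 libraries, while with one the gain was 13.4 ± 7.30 points in 3 of 3. The difference between the lineages in these gains was not tested. In Tregs the values were 2.07 ± 9.86 points without and 6.81 ± 8.52 points with such a UMI, each higher in 2 of 3 libraries. In the full-depth sums, leaving out every T cell with a Ccr7 or Lef1 UMI lowered the Nr4a2 log2 fold change to 0.27 in CD4 T cells (adjusted p = 0.83) and to -0.49 in CD8 T cells (adjusted p = 0.71). At full depth this limit removed most cells, for example leaving 149 of 1378 CD4 Pdcd1- cells in replicate 2. It removed most Pdcd1+ cells too, leaving for example 235 of 738 CD4 Pdcd1+ cells in replicate 2 and 109 of 467 CD8 Pdcd1+ cells in replicate 3. The limit thus changed both sides of the comparison, and these values cannot be read as the removal of naive Pdcd1- cells alone.

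The Pdcd1+ classes were then compared with each other. Nr4a3 was lower in CD8 than in CD4 Pdcd1+ cells in 3 of 3 libraries, with 118, 52.6 and 77.5 CPM in CD8 and 197, 131 and 115 in CD4. Its log2 fold change was -0.75 ± 0.17 (adjusted p = 0.0040, edgeR), and that of Nr4a1 was -0.46 ± 0.13 (adjusted p = 0.028). These were 2 of 6 members, where 14% of all genes were called. The Nr4a3 call was lost without replicate 2 (-0.54, adjusted p = 0.16), without the library block (-0.73, adjusted p = 0.24), under the study's limits (-0.52, adjusted p = 0.090) and with thinned cells (-0.87, adjusted p = 0.056). The Nr4a1 call held in 8 of 15 alternatives and was at -0.11 under the study's limits (adjusted p = 0.90), -0.10 with thinned cells (adjusted p = 0.95), -0.31 without cells holding UMIs of other cell types (adjusted p = 0.27), -0.44 without the block (adjusted p = 0.64) and -0.72 without T cells holding Ccr7 or Lef1 (adjusted p = 0.14), and it was lost without replicate 2 or 3 (adjusted p = 0.28 and 0.11). Between Treg and CD4 Pdcd1+ cells, none of the 6 passed, where 4.58% of genes were called, and the values ran from -1.19 ± 0.56 for Egr2 to 0.26 ± 0.13 for Nr4a1. Without T cells holding Ccr7 or Lef1, Nr4a2 was lower in Treg Pdcd1+ cells (-1.35, adjusted p = 0.034), as it was with no filter on low counts (-0.66, adjusted p = 0.00069).

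The largest differences of the family lay between B cells and T cells. Against the mean of the 3 Pdcd1- T classes, B cells had more Egr3 (log2 fold change 2.68 ± 0.20, adjusted p = 5.8e-10), Nr4a1 (1.36 ± 0.09, adjusted p = 9.2e-11), Egr2 (1.20 ± 0.32, adjusted p = 0.0032) and Egr1 (0.52 ± 0.22, adjusted p = 0.045). They had less Nr4a3 (-0.57 ± 0.13, adjusted p = 0.0011), and Nr4a2 was not called (-0.32 ± 0.23, adjusted p = 0.24). So 4 of 6 members were called higher, where 29.8% of all genes were, and 1 lower, where 28.8% were. B cells and T cells differ in most genes, and a call alone is common here.

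Egr3 and Nr4a1 were called in every alternative that gave them a value: 14 for Egr3, up to 3.85, and 15 for Nr4a1, from 1.07 to 1.79. Without cells holding UMIs of other cell types, Egr3 was at 3.85 and Nr4a1 at 1.64. The Egr1 call held in 8 of 15 alternatives. Among those in which it was lost were DESeq2 (0.49, adjusted p = 0.11) and the fits without replicate 1 or 2 (0.35 and 0.64, adjusted p = 0.11 each). The study's limits (0.28, adjusted p = 0.42) and the fit without the block (adjusted p = 0.12) were also among them. The Nr4a3 call was lost without the block (-0.59, adjusted p = 0.070). Leaving out T cells with a Ccr7 or Lef1 UMI turned Egr1 to -0.25 (adjusted p = 0.37) and Egr2 to -0.11 (adjusted p = 0.89).

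At equal depth, Egr3 was seen in 8.51%, 4.60% and 4.36% of B cells and, on average, in 0.680% to 1.10% of cells of the T classes. Nr4a1 was seen in 31.5%, 16.4% and 18.8% of B cells, against means of 8.41% to 12.6% in T classes. Nr4a2 and Nr4a3 were in 8.89% ± 3.77 and 8.91% ± 2.42 of B cells, below their mean share in each T class.

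**Figure D4:**
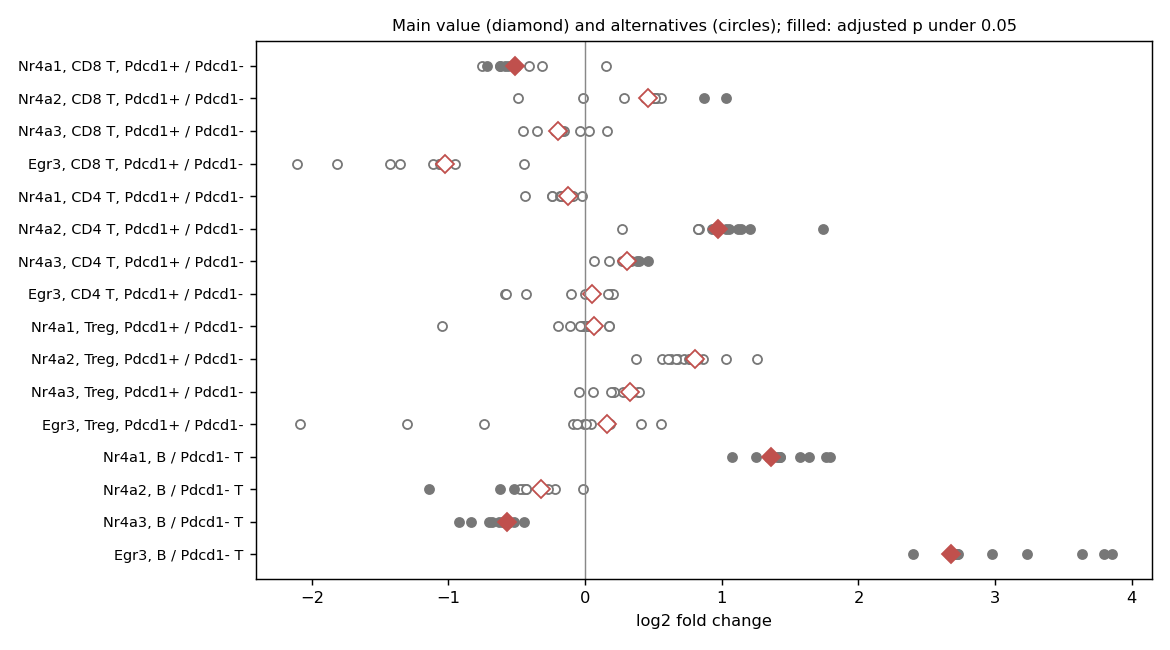
Log2 fold change (horizontal axis) of Nr4a1, Nr4a2, Nr4a3 and Egr3 in 4 comparisons, with a diamond for the main value and a circle for each alternative, filled where the adjusted p was under 0.05. Egr3 and Nr4a1 in B cells keep their side in every alternative, Nr4a2 in CD4 T cells keeps its sign but not always its call, and Nr4a1 in CD8 T cells crosses 0 once.

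The members also varied between cells of a class. Of thinned B cells, 65.3% ± 12.5 held no member UMI, 23.8% ± 7.51 held 1 member, 6.74% ± 3.67 held 2 and 4.10% ± 1.31 held 3 or more. In CD4 Pdcd1+ cells 10.9% ± 5.87 held 2 and 3.09% ± 2.01 held 3 or more, and in CD8 Pdcd1+ cells 10.2% ± 6.86 and 2.05% ± 1.54 did, so the classes overlapped in how many cells held several members. For 15 of 15 pairs of members, the share of B cells with one was higher where the other was present, in 3 of 3 libraries. By T class, this was so for 6 of 14 pairs with enough cells in CD8 Pdcd1+, 10 of 14 in CD8 Pdcd1-, 8 of 14 in CD4 Pdcd1+, 9 of 14 in CD4 Pdcd1-, 4 of 12 in Treg Pdcd1+ and 3 of 12 in Treg Pdcd1- cells, and for 0 pairs was the share lower in 3 of 3 libraries. These counts also follow the number of cells, which was highest in B cells. Over all genes tested, 11.8% were more frequent in 3 of 3 libraries in B cells with Egr3 (19.4% of genes in at least 5% of the cells). With Nr4a2 these shares were 12.6% (17.6%) in CD4 Pdcd1+ and 12.1% (16.6%) in CD8 Pdcd1+ cells. For the other members and classes, Tregs among them, such shares were not counted.

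Of B cells with an Egr1 UMI, 44.8% ± 9.73 also held Egr3, against 4.09% ± 2.17 of those without, higher in 3 of 3 libraries. Egr3 was in 52.7% ± 23.2 of the 58 B cells with Egr2 and in 5.28% ± 2.15 of the others. For Nr4a1 the gap was narrower, at 14.1%, 18.8% and 15.2% with and 5.92%, 1.81% and 1.85% without.

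The other receptor response genes were read in the same cells, over a list of 18 that antigen receptor signals induce. The genes named from here to the end of the next paragraphs on shared cells were chosen after their values were seen. In the 293 thinned B cells with Egr3, 12 of 18 were more frequent in 3 of 3 libraries, 11 of them by at least 5 percentage points, and 0 were less frequent in 3 of 3. Over all genes tested, 11.8% were more frequent and 25.3% less frequent in 3 of 3 libraries, and over those in at least 5% of B cells 19.4% and 23.4%. Myc, which drives growth after activation, was in 39.6% ± 4.58 of B cells with Egr3 and 7.38% ± 1.57 of those without. Irf4, needed for plasma cell and germinal centre fates, was in 42.4% ± 8.34 against 10.2% ± 0.751. The NF-kappaB inhibitor gene Nfkbid was in 29.1% ± 1.71 against 5.13% ± 0.776, and Cd69 in 59.6% ± 11.9 against 27.2% ± 2.88.

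Of 24 immediate early and heat shock genes, 18 were also more frequent in B cells with Egr3 in 3 of 3 libraries and 1 was less frequent. Fosb was in 24.8% ± 4.37 against 4.41% ± 4.09 and Fos in 18.7% ± 7.49 against 5.75% ± 4.02. The heat shock gene Hspa1a was in 1.85% ± 0.706 against 0.505%, but this rests on only 6 of the 293 B cells with Egr3. The part of tissue digestion in these values was not tested. Of 16 genes tied to EGR or NR4A activity in hyporesponsive T cells, 0 were more and 5 less frequent in B cells with Egr3, among them the ubiquitin ligase gene Cblb (a difference of -8.15 ± 1.89 points). Over all genes tested, 11.8% were more and 25.3% less frequent there in 3 of 3 libraries (19.4% and 23.4% of those in at least 5% of B cells). A lower share was thus common among all genes. Of 6 T-cell markers 1 was more and 2 were less frequent with Egr3, and of 9 myeloid markers 1 was more and 2 were less frequent. Cd3d was in 1.82% ± 0.572 with and 3.62% ± 1.35 without Egr3. Among B-cell markers, Ms4a1 was more frequent with Egr3 (65.6% against 57.9%) and Cd79b, a subunit of the B-cell receptor, less frequent (36.1% ± 9.01 against 56.7% ± 6.48).

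**Figure D5:**
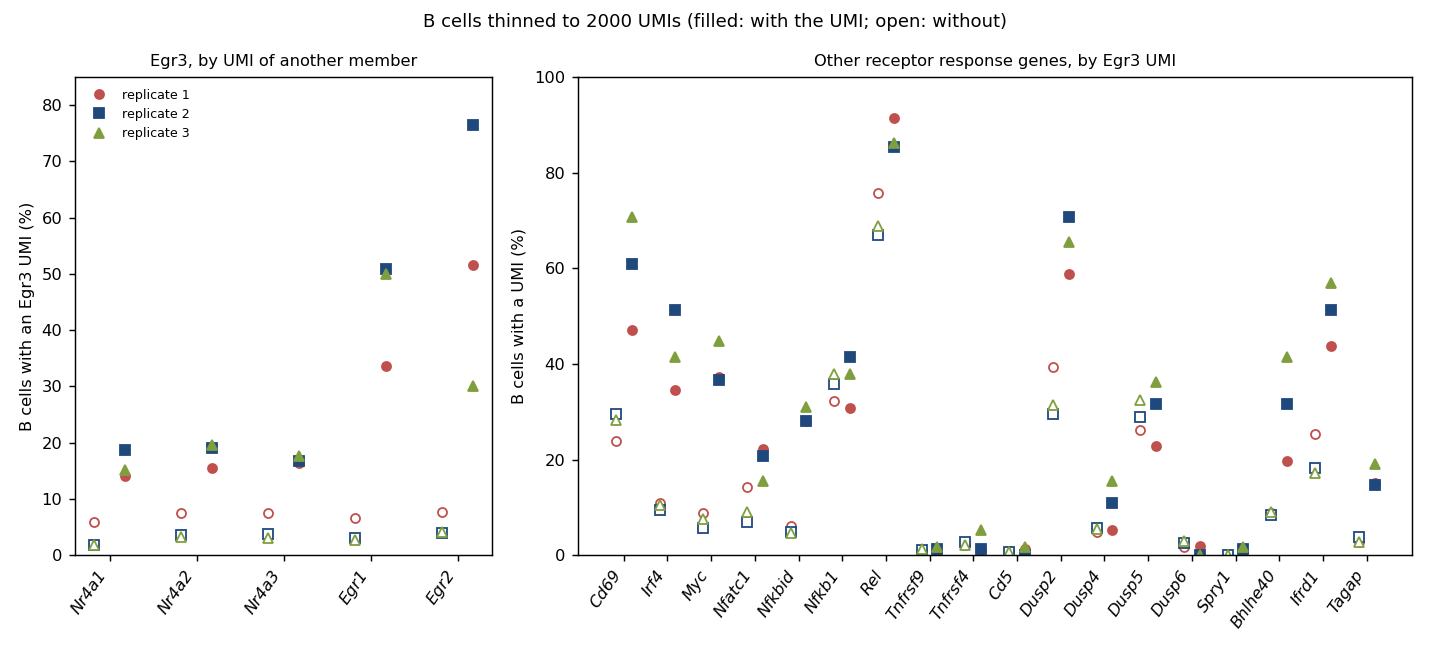
Percent of B cells thinned to 2000 UMIs (vertical axes) with an Egr3 UMI, by whether they held another member (left), and with each of 18 other receptor response genes, by whether they held Egr3 (right), with a point per library, filled with and open without. Egr3 is most frequent beside Egr1 and Egr2, and Cd69, Irf4, Myc, Nfkbid, Dusp2 and Ifrd1 separate filled from open points in every library.

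Nr4a2 was read in the same way in Pdcd1+ T cells. In CD4 Pdcd1+ cells with Nr4a2, 8 of the same 16 genes were more frequent in 3 of 3 libraries and 2, Havcr2 and Nab2, less frequent, where 12.6% of all genes tested were more and 13.7% less frequent (17.6% and 13.1% of those in at least 5% of these cells). Among the 8 were Tox (36.1% ± 9.98 against 26.7%), Lag3 (26.0% ± 4.77 against 18.2% ± 1.61) and Cblb (61.9% ± 6.93 against 51.8% ± 3.51). The egress receptor gene S1pr1 was less frequent (22.4% ± 6.41 against 31.0% ± 7.25). Of the 18 receptor response genes, 6 were more and 0 less frequent there in 3 of 3 libraries, and of the 24 immediate early and heat shock genes 9 were more and 2 less frequent. In CD8 Pdcd1+ cells with Nr4a2, 3 of the 16 genes were more and 1 less frequent, 1 of the 18 was more and 1 less frequent, and 7 of the 24 were more and 2 less frequent, where 12.1% of all genes tested were more and 11.6% less frequent (16.6% and 12.3% of those in at least 5% of these cells). The 3 included Cblb (56.4% ± 5.14 against 44.3% ± 6.82) and Nrn1 (18.4% ± 1.36 against 12.7% ± 1.21), an anergy gene of T cells.

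The same lists were read in the Pdcd1 comparisons. Of 18 other receptor response genes, 6 rose and 2 fell in CD8 Pdcd1+ cells (median log2 fold change 0.08, against 0.01 over all genes), and 6 rose and 3 fell in CD4 Pdcd1+ cells (median 0.14, against 0.01). Over all genes, 10.6% were called in CD8, 11.9% in CD4 and 0.187% in Treg comparisons, in either direction, which is the background for this list and the next 3. Among the risers were Tnfrsf9, the costimulatory receptor 4-1BB (1.57 ± 0.25 in CD8 and 1.66 ± 0.25 in CD4), and Dusp4, a phosphatase of the ERK pathway (1.60 ± 0.31 and 1.14 ± 0.26). Cd69 fell in both (-0.70 ± 0.11 and -0.47 ± 0.11), as did Ifrd1 (-0.62 ± 0.09 and -0.43 ± 0.09). No gene of the list was called in Tregs (18 tested).

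Among 16 genes tied to EGR or NR4A activity, 9 rose and 2 fell in CD8 (median 0.67) and 9 rose and 1 fell in CD4 Pdcd1+ cells (median 0.58). Lag3 and Havcr2, both genes of inhibitory receptors, rose in CD8 T cells by 1.60 ± 0.27 and 1.75 ± 0.35. Nab2, the corepressor that EGR proteins induce and that restrains them, fell there (-0.63 ± 0.20, adjusted p = 0.045). Dgka, which dampens receptor signals, fell in CD8 (-0.36 ± 0.10) and CD4 T cells (-0.47 ± 0.10).

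Of the 24 immediate early and heat shock genes, 1 rose and 10 fell in CD8 Pdcd1+ cells (median -0.38), including Fos (-1.18 ± 0.22), Atf3 (-1.47 ± 0.45) and Klf2, a factor of quiescent T cells (-1.45 ± 0.22), while Ier3 rose (0.91 ± 0.21). In CD4 Pdcd1+ cells 2 rose and 6 fell. Of 12 receptor signalling genes, 4 rose and 3 fell in CD8 and 3 rose and 1 fell in CD4 T cells, with Lcp2, Zap70 and Plcg1 up in both. In Tregs 0 of these 12, 16 and 24 genes were called.

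In B cells, 8 of the 18 receptor response genes were higher and 7 lower than in Pdcd1- T cells, where 29.8% of all genes were higher and 28.8% lower. Myc (2.01 ± 0.13), Nfkbid (1.97 ± 0.16) and Rel (1.91 ± 0.11) were the highest of these, and Tnfrsf4, Cd5 and Tnfrsf9, which T cells use, the lowest (-4.57 ± 0.26, -4.53 ± 0.18 and -3.59 ± 0.26). Of the 16 EGR or NR4A genes of hyporesponsive T cells, 14 were lower in B cells, among them Nrn1, Lag3 and Tigit, and 1 was higher, Nab2 (0.53 ± 0.12, adjusted p = 0.00087).

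As a description, levels were correlated over the 21 sums (log2 scale, centred within each library), which share libraries and in which B cells stand apart. Nr4a1 and Egr3 had r = 0.889, Egr1 and Egr3 0.731, and Nr4a2 and Nr4a3 0.559, whereas Nr4a1 and Nr4a2 had r = -0.473. Of about 5286 genes with a mean of at least 20 CPM, those most like Nr4a1 were Atp6v0b (r = 0.962), Dennd5b and H2-DMa. Those most like Nr4a2 were Gtf2b (r = 0.862), Nmrk1 and Jade2, and among those most like Nr4a3 were Phf6 (r = 0.837) and Slc23a2. For Egr1, Tut7 (r = 0.799) and Homer1 were among them, for Egr2 they were Rassf2 (r = 0.823), Secisbp2 and Snx1, and for Egr3 Mphosph10 (r = 0.936), Fubp1 and Slc30a5.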

How the data were processed

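Live CD45+ islet cells of 3 libraries were measured by droplet single-cell RNA sequencing (10x, 3-prime). The authors deposited raw UMI counts per gene and cell from Cell Ranger 6.0.1 on mm10, with barcodes filtered by that program and no further normalization. Depth was 33851381 to 80806452 UMIs per library.

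UMIs were summed per library and class (21 sums), and 11259 genes that passed edgeR's expression filter were fitted with edgeR 4.0.16 (R 4.3.3, TMM, quasi-likelihood test, library as a block, Benjamini-Hochberg adjustment, threshold 0.05). A library's classes share their mice, and sums of a library deviated together, with a mean r of 0.398 over 63 pairs (0.214 to 0.651). Over 126 pairs of different libraries the mean was -0.179 (-0.523 to 0.335), so the ranges overlap. Each class was centred over its libraries first, which by itself lowers r between libraries. With the library as a block, the p-values do not measure the spread between the pools of mice themselves. They measure how evenly a class difference repeats over the 3 pools, with a spread estimate shared by all 21 sums. Shares used cells thinned to 2000 UMIs, with exact two-sided sign-flip tests over libraries (scipy 1.17.1, numpy 2.4.6, Python 3.11.15). No doublets were removed, and leaving out the 7.6% of cells with the highest Scrublet scores (scanpy 1.11.5) was an alternative, as were DESeq2 1.42.0, other cell limits and each library left out. Scripts were tested on simulated data.

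The members and gene lists were chosen with earlier results of these data known. In each comparison, all 6 members and up to 3 called genes per list and direction with the largest change were named, and for each member the 3 genes most like it. Some of the genes so named, and 1 naive marker, are not reported here. Gene positions and exons were those of GENCODE M21. Protein sequences were not used here.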

Additional observations from a re-analysis of the deposited data

Results flagged for a closer look

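The levels of Egr3 lay on opposite sides in CD8 and CD4 T cells in every library, though the fitted value in CD4 T cells was close to 0 (0.05 ± 0.31). Egr3 was lower in Pdcd1+ than in Pdcd1- CD8 T cells in 3 of 3 libraries (ratios of 0.519, 0.543 and 0.526) and higher in Pdcd1+ CD4 T cells in 3 of 3 libraries (1.01, 1.04 and 1.40). The difference of the log2 fold changes, CD8 minus CD4, was -1.07 ± 0.53 (edgeR, adjusted p = 0.91) and did not pass. Over 14 alternatives it ran from -2.32 to 0.14 and passed in 0. The CD8 values rest on 38 UMIs in Pdcd1+ and 112 in Pdcd1- cells. At equal depth, the share of cells with Egr3 differed by -0.826, 0.345 and -0.199 percentage points in CD8 T cells.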

How the results depend on the processing

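The comparisons are shortened here to CD8, CD4 and Treg for Pdcd1+ against Pdcd1- cells, Treg-CD4 and CD8-CD4 between Pdcd1+ classes, B for B cells against Pdcd1- T cells, and interactions for differences against CD4. Values are counts of members or genes called by edgeR (DESeq2 where named) and log2 fold changes that turned sign, and the cause was not tested. The alternative without T cells with Ccr7 or Lef1 was chosen after seeing the data. The genes tested were 5598 with thinned cells, 7899 without T cells with Ccr7 or Lef1, 7962 under the study's limits and 20560 with no filter. They were 10712 without cells with UMIs of other cell types and 11259 in the main fit, with DESeq2 and with no block. Without replicates 1, 2 and 3 they were 11817, 11053 and 10959. Counts of genes called are therefore not on one base.

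With cells thinned to 2000 UMIs before the split, the members called were 0 in CD8 and 0 in CD8-CD4, and the genes called were 224 in CD8, 487 in CD4, 2 in Treg, 159 in Treg-CD4, 336 in CD8-CD4, 2973 in B, 1 in CD8 interaction and 1 in Treg interaction. Sign turned there for Nr4a1 in CD8 (0.15), Nr4a3 in CD8 (0.16), Egr1 in CD4 (0.15), Egr1 in Treg (-0.24), Egr1 in Treg-CD4 (-0.68) and Nr4a1 in CD8 interaction (0.18). Without T cells with Ccr7 or Lef1, the members called were 0 in CD8, 0 in CD4, 1 in Treg-CD4 and 1 in CD8-CD4, and the genes called were 8 in CD8, 96 in CD4, 3 in Treg, 219 in Treg-CD4, 773 in CD8-CD4, 3851 in B and 0 in Treg interaction. Sign turned there for Nr4a2 in CD8 (-0.49), Egr2 in CD8 (-1.20), Egr2 in CD4 (-0.45), Nr4a1 in Treg (-1.05), Nr4a3 in Treg (-0.046), Egr1 in Treg (-1.46), Egr3 in Treg (-2.09), Nr4a1 in Treg-CD4 (-0.23), Egr1 in Treg-CD4 (-0.81), Egr3 in Treg-CD4 (0.85), Nr4a2 in CD8-CD4 (-0.25), Egr2 in CD8-CD4 (-0.78), Egr1 in B (-0.25) and Egr2 in B (-0.11). With no filter on low counts, the members called were 3 in CD8, 1 in Treg and 2 in Treg-CD4, and the genes called were 1365 in CD8, 143 in Treg, 864 in Treg-CD4, 80 in CD8 interaction and 217 in Treg interaction. Under the study's limits, the members called were 2 in CD4 and 0 in CD8-CD4, and the genes called were 638 in CD8, 1043 in CD4, 9 in Treg, 330 in Treg-CD4, 430 in CD8-CD4, 4190 in B, 2 in CD8 interaction and 1 in Treg interaction. Sign turned there for Nr4a3 in CD8 (0.031), Egr1 in CD4 (0.19), Egr3 in CD4 (-0.59), Nr4a1 in Treg (-0.011), Egr1 in Treg (-0.78), Egr3 in Treg (-0.086), Egr1 in Treg-CD4 (-0.91), Egr3 in CD8-CD4 (0.59) and Egr3 in CD8 interaction (0.14). Without cells with Hspa1a or Hspa1b, sign turned for Egr1 in CD4 (0.18), Egr1 in Treg (-0.15) and Egr1 in Treg-CD4 (-0.11). Without cells with UMIs of other cell types, the members called were 1 in CD8-CD4, and the genes called were 2 in Treg, 1426 in CD8-CD4 and 1 in Treg interaction. Sign turned there for Egr3 in CD4 (-0.58), Nr4a1 in Treg (-0.20), Egr1 in Treg (-0.18) and Egr3 in Treg (-1.30). With Pdcd1+ at 2 or more UMIs, the genes called were 14 in Treg interaction. The sign was the opposite for Egr3 in CD4 (-0.43), Nr4a1 in Treg (-0.11), Egr1 in Treg (-0.18), Egr3 in Treg (-0.011), Egr1 in Treg-CD4 (-0.091) and Nr4a2 in CD8-CD4 (-0.022). Without Scrublet doublets, the genes called were 5 in Treg and 0 in Treg interaction. Sign turned there for Egr3 in Treg-CD4 (0.090). With DESeq2, the genes called were 53 in Treg, 6 in CD8 interaction and 80 in Treg interaction. With cells of both rules kept as Treg, the genes called were 1 in CD8 interaction and 0 in Treg interaction.

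The fit as reported pairs the classes by library. With no replicate block, the members called were 0 in CD8, 0 in CD4, 0 in CD8-CD4 and 3 in B, and the genes called were 212 in CD8, 217 in CD4, 1 in Treg, 107 in Treg-CD4, 538 in CD8-CD4, 4884 in B and 0 in Treg interaction. Sign turned there for Egr3 in CD4 (-0.0047), Nr4a1 in Treg (-0.015) and Egr3 in Treg (-0.062).

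Without each replicate in turn, the members called ranged from 0 to 2 in CD8, from 0 to 2 in CD4, from 0 to 1 in Treg-CD4 and from 0 to 2 in CD8-CD4. Without each replicate in turn, the genes called ranged from 162 to 1721 in CD8, from 123 to 2239 in CD4, from 1 to 157 in Treg, from 77 to 880 in Treg-CD4, from 468 to 1870 in CD8-CD4, from 0 to 70 in CD8 interaction and from 0 to 357 in Treg interaction. Values that turned sign ranged from -0.017 to 0.87 for Nr4a2 in CD8, from -0.44 to 0.81 for Egr2 in CD8, from -0.17 to 0.0094 for Egr1 in CD4, from -0.10 to 0.16 for Egr3 in CD4, from -0.037 to 0.17 for Nr4a1 in Treg, from -0.64 to 0.46 for Egr1 in Treg, from -1.93 to 0.95 for Egr2 in Treg, from -0.74 to 0.55 for Egr3 in Treg, from -0.42 to 0.49 for Egr1 in Treg-CD4, from -0.13 to 0.42 for Nr4a2 in CD8-CD4 and from -0.35 to 0.70 for Egr2 in CD8-CD4.

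Of 564 log2 fold changes of members under the alternatives, 463 kept direction and call, 59 turned sign, 27 lost a call and 15 gained one. Of 117 share differences at other depths, in other cells or without a replicate, 21 moved by more than the SD over libraries, and for Nr4a2 the gain stayed above 0 in all of them, from 8.39 to 21.7 points in CD4 T cells, 3.19 to 22.5 in CD8 T cells and 2.07 to 19.6 in Tregs, with the highest without thinning. Of 95 co-detection differences, 30 moved by more than their SD at 3000 UMIs, and those of B cells kept their sign. Depth limits the Egr2 and Egr3 values of T cells (22 to 166 UMIs per class), and 3 libraries limit every p of the share tests to 0.25 or more. Replicate 1 differed in depth and immediate early genes, and B-cell transcripts were counted in T classes. Member values without replicate 1 and without cells holding UMIs of other cell types are among the alternatives above. The cause of the changes under them was not tested.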

Other observations

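Outside the 7 classes, 245 NK-like cells (an Ncr1 UMI, no Cd3e or Cd79a UMI) had 400, 118 and 210 CPM of Nr4a2 and 213, 165 and 126 CPM of Nr4a3 in replicates 1 to 3, and 1 UMI of Egr3 in all. Thinned to 2000 UMIs, 52.0%, 20.3% and 20.7% of them held Nr4a2. The 217 Myeloid-like cells had 78.5, 11.8 and 218 CPM of Egr1, a spread of libraries wider than in any lymphocyte class. Their Nr4a3 was at 177, 130 and 110 CPM. No comparison was made with these cells.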
